A study of Rattus norvegicus with 24 samples.

Results

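Nes and Vim, the genes of the intermediate filament proteins nestin and vimentin, were followed through bulk RNA sequencing of rat neurospheres (NSps). They are 2 of the 16478 genes listed and were taken by their Ensembl identifiers, ENSRNOG00000018681 for Nes and ENSRNOG00000018087 for Vim. No measured value entered that rule, and both genes were above 1 TPM, a share of transcripts adjusted for their length, in every sample, so both passed the filter on low values.

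The NSps were grown from neural progenitor cells (NPCs) of E15 fetal brains of Sprague Dawley rats, and all 6 groups shared a medium with EGF and FGF at 20 ng/mL, which keeps progenitors dividing. Non-irradiated groups were untreated (C), given 5 µM Noggin (N), a secreted protein that binds and blocks BMP ligands, or given 200 µM ascorbic acid (A), an antioxidant. The matching groups CGy, NGy and AGy had the same additions before and after 1 Gy of X-ray photons on day 3 after seeding. Each group had 4 samples. The table columns carry identifiers (MO1 to MO24) that the labels do not hold. The group of each column was therefore taken from the study's account and from the list of columns given with the genes. The labels do not say whether samples came from separate cultures, litters or animals, so every p-value below measures only the spread between samples, which may be technical. The 8 samples with ascorbic acid carry lower label numbers than all samples of N, CGy and NGy, and what the numbers mark is not stated, so numbering and ascorbic acid cannot be told apart.

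One untreated sample, MO2, stood apart: its median gene was at 1.32 TPM, against 2.57 to 3.20 TPM in the other 23 samples, and the authors' batch-corrected table leaves it out. Group C therefore had 3 samples here (MO1, MO3 and MO4), and results that depend on MO2 are given with it as well. Of the other C samples, MO4 had the highest Vim value of all samples, and results that rest on it are given without it. TPM values are shares of the measured transcripts and keep no read counts, so the depth behind each value is unknown.

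Nestin and vimentin belong to the intermediate filaments, the cytoskeletal fibres that give a cell tensile strength and anchor its organelles. Nestin does not form filaments by itself and assembles together with vimentin or a related protein. In the developing brain, neural stem cells and radial glia carry both proteins. Nestin is lost as progenitors become neurons or mature glia, while vimentin stays in immature and reactive astrocytes and is also abundant in mesenchymal and endothelial cells.

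The stretches of promoter that differ between the genes are shown because only that of Vim holds a TATA motif. They were read from RefSeq promoters on the rat build GRCr8 within 250 bases before each start site, on the plus strand, where both genes lie. Capitals mark the motif. TATAAA was searched on the strand of the gene. CCAAT was searched on both strands, where its reverse complement reads ATTGG. The third motif was GGGCGG, also searched on both strands, where its reverse complement reads CCGCCC. No motif shares bases with another in these windows.
Nes, GGGCGG in reverse, chr2:175736522-175736551: aggcctggggggCCGCCCcttttCCGCCCa
Vim, TATAAA, chr17:81577167-81577196: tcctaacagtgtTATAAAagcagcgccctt
Vim, CCAAT in reverse, chr17:81577105-81577134: ctccgggtccccATTGGctggctcattcgg
Vim, GGGCGG in reverse, chr17:81577069-81577098: gggagcccccccCCGCCCcactccttcctc
The Nes window held GGGCGG only, in 2 copies, and the Vim window held all 3 motifs. The TATAAA of Vim begins 82 bases before the start, and neither gene held TATAAA in the last 50 bases before it. Among 33469 promoters of the same length, 8.06% held TATAAA, 34.0% CCAAT and 30.5% GGGCGG. These matches are a description of letters, and the best known neural control element of Nes lies in an intron, outside this window.

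Both filament genes were strongly expressed in every group, with Vim far above Nes. On the TPM scale, which is per transcript length, Vim ranked 11 to 28 among the 16478 genes over the 23 samples and made up 0.365% to 0.819% of the listed TPM. Nes ranked 369 to 651 and made up 0.0210% to 0.0342%. The label of neural progenitors was checked on these 2 genes alone, since the other identifiers could not be paired with gene names. In bulk samples, fewer cells of a type and less RNA per cell cannot be told apart.

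Nes stood at 202, 214 and 209 TPM in C. It was at 201, 172, 190 and 173 TPM in N and at 176, 179, 205 and 172 TPM in A. In the irradiated NSps it was at 181, 167, 175 and 196 TPM in CGy and at 147, 137, 143 and 141 TPM in NGy. In AGy it was at 194, 197, 159 and 159 TPM. The 4 NGy samples were the lowest of all 23: the highest of them, at 147 TPM, lay below the 159 TPM of the lowest of the other 19. At the top, 1 of the 20 samples outside C was above the lowest C sample.

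Vim stood at 3329, 2991 and 5123 TPM in C, the last value being MO4. It was at 3432, 2514, 2909 and 2901 TPM in N and at 3382, 3083, 3075 and 2284 TPM in A. In the irradiated NSps it was at 2843, 2681, 2573 and 2679 TPM in CGy, at 2804, 2578, 2622 and 2650 TPM in NGy, and at 3517, 2675, 2666 and 2345 TPM in AGy. Outside C, 5 of the 20 samples were above the lowest C sample, and the lowest value of all was in A. CGy and NGy were tight, with SDs of 111 and 98.4 TPM, while the C, A, N and AGy samples spread more widely.

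**Figure D1:**
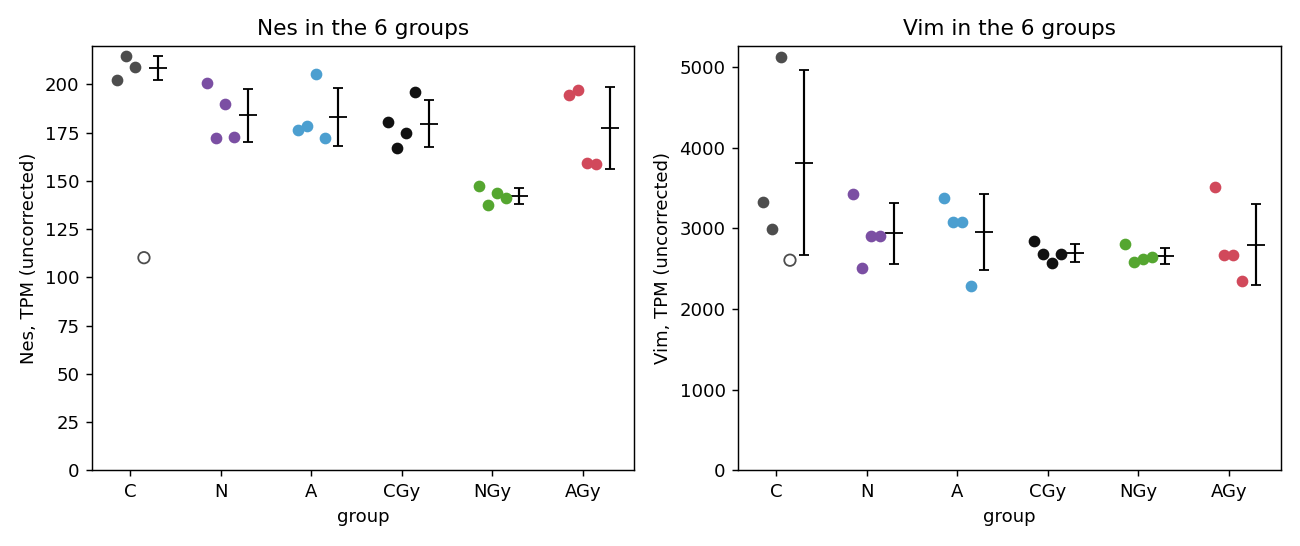
Level of Nes (left) and Vim (right) in TPM, linear axes, in each sample of the 6 groups; points are samples, bars the mean and SD, and the sample left out, MO2, is drawn apart. The 4 NGy samples sit below all others but MO2 for Nes, between 137 and 147 TPM. For Vim, 1 C sample at 5123 TPM stands above all others.

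The order of group means was C, N, A, CGy, AGy and NGy for Nes, at 208.5 ± 6.14 (SD, n = 3), 183.9 ± 13.8, 183.1 ± 15.1, 179.6 ± 12.3, 177.3 ± 21.3 and 142.3 ± 4.16 TPM (SD, n = 4 each). For Vim it was C, A, N, AGy, CGy and NGy, at 3815 ± 1146 (SD, n = 3), 2956 ± 470, 2939 ± 377, 2801 ± 502, 2694 ± 111 and 2663 ± 98.4 TPM (SD, n = 4 each). Thus, without MO2, C was highest and NGy lowest for both genes. The span in log2(TPM + 1) means was 1.46-fold for Nes and 1.39-fold for Vim. With MO2 in C, the log2 differences of Nes from C were 0.05 in N, 0.04 in A and 0.01 in CGy. AGy and NGy then lay below C, at -0.01 and -0.32, so C was not highest for Nes. None of the first 4 neighbouring pairs of Nes had an adjusted p of 0.05 or less in limma (0.434 to 0.965), though C and N did not overlap. The last pair, AGy and NGy, did not overlap, with a log2 difference of 0.31 (95% interval 0.09 to 0.52) and limma's adjusted p at 0.0507. For Vim no neighbours differed beyond their spread, with limma's adjusted p from 0.569 to 0.992.

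Differences were tested with limma on log2(TPM + 1), with Benjamini-Hochberg adjustment over all genes tested, and a gene was called at an adjusted p of 0.05 or less together with a 1.5-fold change. In 9 comparisons, limma called neither gene, and the largest difference of any pair of groups, 0.55 for Nes and 0.48 for Vim on the log2 scale, was under the 0.58 that 1.5-fold requires. By limma's adjusted p alone Nes passed in 1 of the 9 comparisons and Vim in 0. At an unadjusted limma p under 0.05 the counts were 4 and 1. For Vim this was CGy against C, where 1433 of 9782 genes had such a p. For Nes it was that comparison and 3 others. Such a p was found for 3239 of 9765 genes in NGy against N and 1728 of 9686 in NGy against CGy. In AGy against NGy it was found for 3462 of 9840 genes.

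The first question was whether 1 Gy alone moved the filament genes. Nes was lower in CGy than in C by a log2 difference of -0.22 (SE 0.087), 0.861-fold, and no CGy sample reached the C range. Its adjusted p in limma was 0.331 and it was not called. Vim was lower by -0.46 (SE 0.18), 0.726-fold, again without overlap and with limma's adjusted p at 0.331. For scale, 0.0204% of the 9782 genes tested were called in this comparison, and 5.94% had all CGy samples below all C samples.

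The size of the Vim difference rested on MO4. Without that sample C averaged 3160 ± 239 TPM (SD, n = 2) and the Vim difference was -0.23 (limma, adjusted p = 0.533), while Nes stayed at -0.21. MO2 acted on Nes instead: with it in C, at 110 TPM, the Nes difference was 0.01 (limma, adjusted p = 0.979) and that of Vim -0.33 (limma, adjusted p = 0.561). MO2 also moved the median difference of all genes, by 0.155 to 0.171 on the log2 scale.

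With Noggin present, Nes was lower after radiation. NGy averaged 142.3 TPM against 183.9 TPM in N, a log2 difference of -0.36 (SE 0.067), 0.777-fold, with every NGy sample below every N sample. Limma's adjusted p was 0.0161, and 14.1% of the genes tested passed by adjusted p alone. The Nes change did not reach 1.5-fold, so it was not called. In the same comparison Vim differed by -0.13 (95% interval -0.35 to 0.08; limma, adjusted p = 0.350) and its groups overlapped. Of the 9765 genes tested 2.91% were called, and 12.0% had all NGy samples below all N samples.

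With ascorbic acid present, no difference with radiation was detectable for either gene. Nes in AGy against A gave a log2 difference of -0.05 (95% interval -0.29 to 0.19; limma, adjusted p = 0.870). Vim gave -0.08 (95% interval -0.44 to 0.28; limma, adjusted p = 0.862). The samples of AGy and A overlapped for both genes, and limma called 0% of the 9859 genes tested, with 1256 of them at an unadjusted p under 0.05. Groups did not overlap for 8.10% of those genes.

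**Figure D2:**
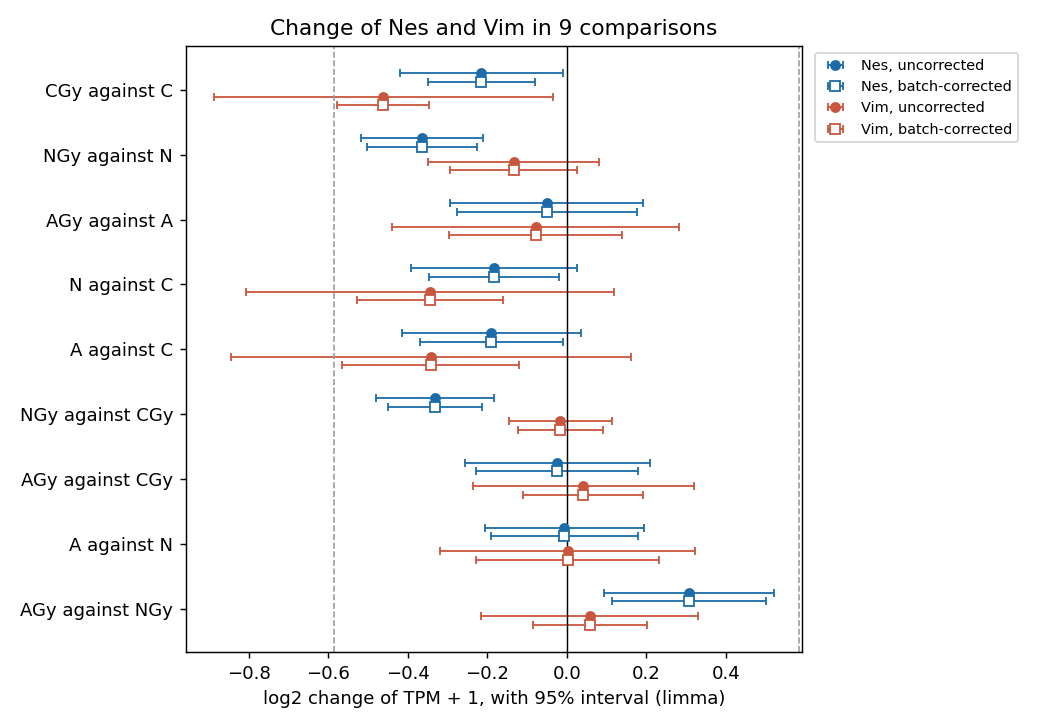
Log2 difference (points) with its 95% interval (bars) of Nes and Vim in each comparison, from log2(TPM + 1), in the uncorrected table (filled) and in the batch-corrected table (open); dashed lines mark 1.5-fold. All points lie inside the 1.5-fold lines, and the Vim interval of CGy against C is narrower after correction, which does not count the variation it removed.

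Whether the radiation difference itself changed with an addition was tested as an interaction over 4 groups. For Noggin the change of the radiation difference was -0.15 (SE 0.099) on the log2 scale for Nes and 0.33 (SE 0.20) for Vim, with limma's adjusted p at 0.436 and 0.407. For ascorbic acid it was 0.17 (SE 0.14) for Nes and 0.38 (SE 0.25) for Vim, with limma's adjusted p at 0.684 and 0.650. So the stronger Nes difference under Noggin was not shown to differ from that in untreated NSps. Interactions needed an adjusted p of 0.05 alone, and by it 0.0100% of 9958 genes (Noggin) and 0.00996% of 10038 genes (ascorbic acid) were called. Without MO4 the Vim values were 0.10 for Noggin and 0.15 for ascorbic acid. With MO2 in C the Noggin values were -0.38 for Nes and 0.20 for Vim, and those for ascorbic acid -0.06 and 0.26, with limma's adjusted p from 0.456 to 0.911.

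In non-irradiated NSps, both genes averaged lower with either addition than in C, and none of these differences passed the test. Nes was lower in N by a log2 difference of -0.18 (SE 0.090; limma, adjusted p = 0.434), with no overlap, and 0.0102% of the 9779 genes tested were called and 5.32% were lower in N without overlap. In A it was lower by -0.19 (limma, adjusted p = 0.482), with overlap, and 0.0203% of 9850 genes were called. Vim differed from C by -0.34 in N and in A (limma, adjusted p = 0.478 and 0.569), and the samples overlapped in both. Without MO4 these Vim differences were -0.11 and -0.11, and with MO2 the Nes differences were 0.05 in N and 0.04 in A.

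After 1 Gy, the Nes values with Noggin lay below those with ascorbic acid and those with radiation alone. NGy was below CGy by a log2 difference of -0.33 (SE 0.064), without overlap (limma, adjusted p = 0.0617). There 0.392% of 9686 genes were called, 6.83% were lower without overlap, and 102 passed by adjusted p alone. AGy did not separate from CGy, at -0.02 (95% interval -0.26 to 0.21; limma, adjusted p = 0.898), where 6.42% of 9847 genes were called. AGy was above NGy by 0.31 (SE 0.093), without overlap (limma, adjusted p = 0.0507). There 8.96% of 9840 genes were called, 14.1% were higher without overlap, and 1955 passed by adjusted p alone. Leaving out each sample in turn moved limma's adjusted p for that pair between 0.0459 and 0.113, the lowest without the AGy sample MO24. Some other settings moved these values across 0.05. For AGy against NGy limma's adjusted p was 0.0462 with quantile normalization and 0.0493 with libraries rescaled to equal sums. It was 0.0286 with a variance trend and 0.0119 with the 6 groups fitted jointly (limma). By adjusted p alone, 2172 of 9840 genes passed with quantile normalization, 1896 of 9842 when rescaled and 2169 of 9840 jointly. For NGy against CGy limma's adjusted p for Nes was 0.0476 with no filter on low values and 0.0246 with a variance trend. AGy against NGy stayed above 0.05 with another pseudocount (0.0577) and with no filter (0.0778) in limma. NGy against CGy stayed above it with another pseudocount, both other scalings and the joint fit (limma, 0.0544 to 0.0679). It also did so with each sample left out (limma, 0.0544 to 0.161). The changes stayed under 1.5-fold, so no call changed.

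Vim showed no such separation after 1 Gy. NGy against CGy differed by -0.02 (95% interval -0.15 to 0.11; limma, adjusted p = 0.921), AGy against CGy by 0.04 (limma, adjusted p = 0.848) and AGy against NGy by 0.06 (limma, adjusted p = 0.763). The samples of each pair overlapped. Without irradiation, A and N lay together for both genes, with log2 differences of -0.01 for Nes (95% interval -0.21 to 0.19; limma, adjusted p = 0.965) and 0.002 for Vim (limma, adjusted p = 0.992), where 10.1% of 9906 genes were called.

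Set against untreated NSps, the largest Nes difference was that of NGy, which combines Noggin and radiation. It was -0.55 (SE 0.070), 0.684-fold, with no overlap and limma's adjusted p at 0.0329, where 0.849% of 9772 genes passed by adjusted p, 0.665% were called and 10.8% were lower without overlap. The Vim difference was -0.48 (limma, adjusted p = 0.173), also without overlap, and -0.25 without MO4 (limma, adjusted p = 0.150). With MO2 in C, the Nes difference was -0.32 (limma, adjusted p = 0.591). Comparisons with C, CGy or NGy share those samples, so their values are not independent of each other.

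The ratio of the filament genes in NGy did not overlap that in N, CGy and AGy, without passing the adjusted test. Vim was 16.5, 14.0 and 24.5 times Nes in C, on the TPM scale. The ratio was 18.3 to 19.0 in the 4 NGy samples and 13.7 to 16.1 in the 4 CGy samples, and it averaged 16.0 ± 1.19 in N and 15.8 ± 2.02 in AGy (SD, n = 4 each). In A it ran from 13.3 to 19.2. NGy samples lay above all samples of N, CGy and AGy and within the ranges of C and A. Among the 3 C samples used, the overlap rested on MO4, at 24.5. The other C samples used, at 16.5 and 14.0, lay below all NGy samples. MO2, the C sample left out, was at 23.7, above all NGy samples.

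On the log2 scale Nes relative to Vim was lower in NGy than in N by -0.23 and than in CGy by -0.32, and it was 0.25 higher in AGy than in NGy. Each of these gave p = 0.0286 in a two-sided exact permutation test, which is the smallest p that 4 against 4 samples allow, and 0.0857 after adjustment over 9 comparisons. In the other 6 comparisons the exact permutation test gave adjusted p-values from 0.882 to 0.914. For the comparisons with C, 3 against 4 samples cannot go below p = 0.0571 in that exact permutation test.

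**Figure D3:**
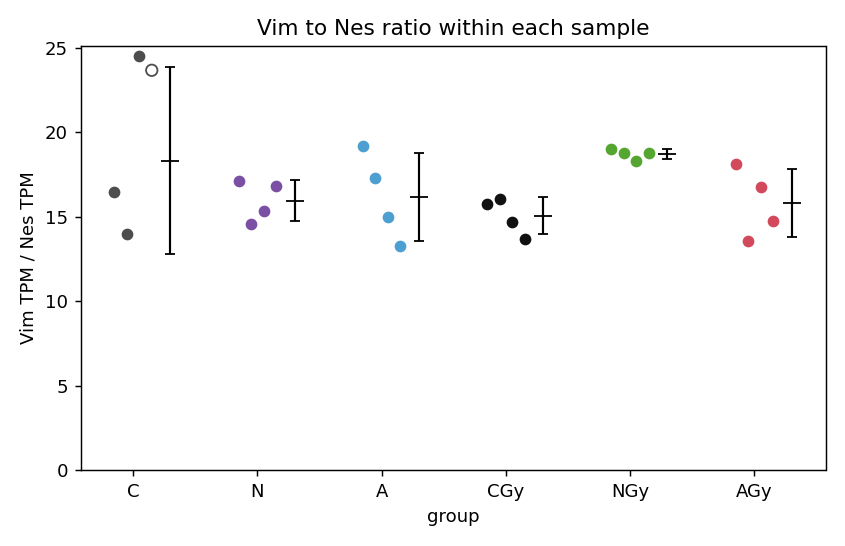
Vim to Nes ratio of TPM in each sample of the 6 groups, linear axis; points are samples, bars the mean and SD, and the sample left out, MO2, is drawn apart. NGy samples sit between 18.3 and 19.0, above every CGy sample, while C spreads from 14.0 to 24.5, the highest being MO4.

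The batch correction that the authors applied acted very differently on the genes. Their corrected values keep the group means of both genes on the log2 scale. What was taken out equals the 2 largest components of variation within groups, within 0.001 on the log2 scale, for all 12381 genes with no corrected value below 0. The correction so takes the group labels as known. For Nes it removed 6.15% of the within-group sum of squares and for Vim 77.2%, against 39.0% for the median gene. The within-group SD on the log2 scale was 0.109 before and 0.105 after for Nes, and 0.220 before and 0.105 after for Vim. In C the corrected Vim values lay within 3702 to 3713 TPM, where the uncorrected ones ran from 2991 to 5123 TPM.

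With group means held, the correction left every log2 difference as it was and changed only the errors. In the corrected table limma's adjusted p for Nes was 0.0285 in CGy against C, 0.0040 in NGy against N, 0.0064 in NGy against CGy and 0.0202 in AGy against NGy. For Vim it was 0.0012 in CGy against C and 0.0305 in N against C. By the same adjusted p alone, 30.5% of genes passed in CGy against C, 29.7% in NGy against N, 17.1% in NGy against CGy, 39.7% in AGy against NGy and 14.6% in N against C. None of the differences of Nes and Vim reached 1.5-fold, as 6.73% of 9763 genes did with that p in CGy against C. The Vim differences from C held MO4, and without it the uncorrected values gave -0.23 in CGy and -0.11 in N.

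With the 2 components as covariates instead, limma's adjusted p for Nes was 0.0724 in CGy against C, 0.0029 in NGy against N, 0.0157 in NGy against CGy and 0.0054 in AGy against NGy. For Vim it was 0.0008 in CGy against C, 0.0088 in N against C and 0.0126 in A against C, the last being 0.0677 in the corrected table (limma). In this fit 26.1% of genes passed by adjusted p alone in CGy against C, 28.3% in NGy against N, 8.53% in NGy against CGy, 38.0% in AGy against NGy, 19.5% in N against C and 16.5% in A against C. This fit was chosen after the data were seen. Its Vim comparisons with C also held MO4, without which the uncorrected differences were -0.23, -0.11 and -0.11.

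The Vim interactions crossed the threshold after correction, and that for ascorbic acid also with the components in the model, in fits that held MO4. Without MO4 the uncorrected values gave 0.10 for Noggin and 0.15 for ascorbic acid. The corrected values were not refitted without it. In the corrected table limma's adjusted p was 0.0156 for Noggin and 0.0458 for ascorbic acid, where 24.1% of 9936 and 11.2% of 10024 genes were called. With the 2 components as covariates, limma gave 0.0631 and 0.0473, where 16.7% of 9958 and 9.84% of 10038 genes were called. That fit takes the same 2 components out of the error, so it is not an independent check of the corrected values. In the joint fit the SE of Vim in CGy against C was 0.162 without the components and 0.0855 with them. Nes passed in neither interaction, with limma's adjusted p at 0.204 and 0.396 in the corrected table.

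**Figure D4:**
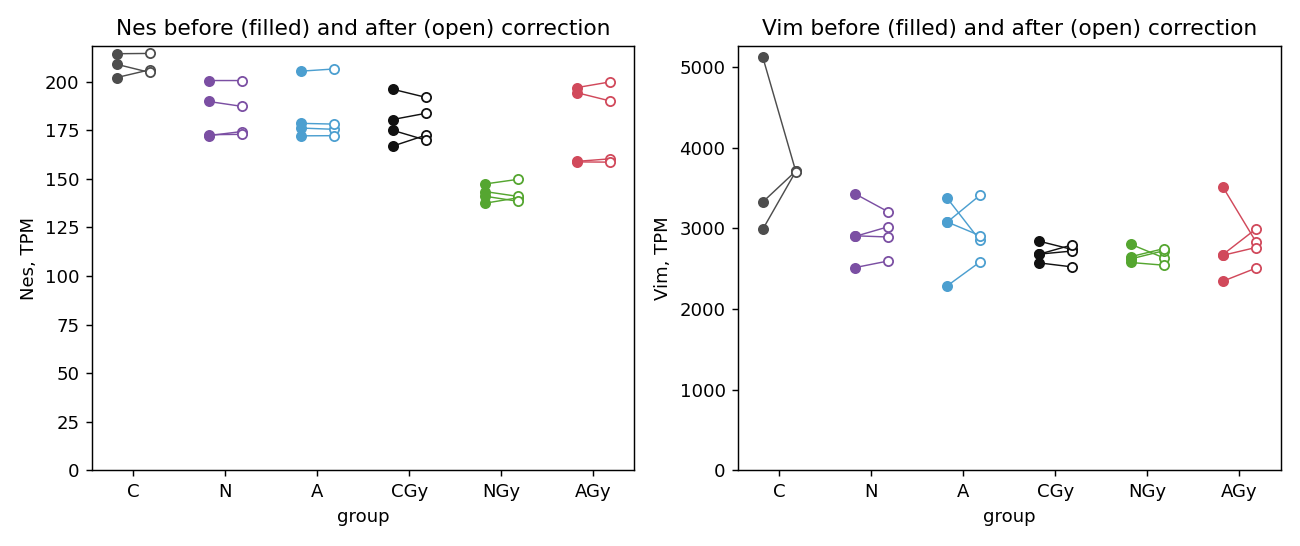
Nes (left) and Vim (right) of each sample in TPM before and after the authors' batch correction, by group, with lines joining a sample's values. The Nes values hardly move, and the 3 C values of Vim come together between 3702 and 3713 TPM.

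Beside the rest of the transcriptome, Nes varied little within groups, near the median for genes of its level, and Vim varied more. Of 10134 genes, 17.1% had a smaller within-group SD than Nes and 62.6% a smaller one than Vim, on the log2 scale. Among the 915 genes averaging 100 TPM or more these shares were 41.9% and 89.2%. Without MO4, 53.0% of all genes had a smaller SD than Vim, near the median gene, and 86.1% of the 915 did. For Nes these shares were then 22.3% and 55.2%. The span of the 6 group means was 0.55 for Nes and 0.48 for Vim, against 0.42 for the median gene, and 65.0% and 57.4% of genes had a smaller span. Among the same 915 genes, 83.4% had a smaller span than Nes and 78.3% a smaller one than Vim. The Vim span rested on MO4: without that sample it was 0.25, below the median gene, and 19.8% of all genes and 30.7% of the 915 had a smaller one. The Nes span stayed at 0.55 without MO4, but it rested on MO2 being left out. With MO2 in C, N was highest and NGy lowest for Nes, 0.36 apart on the log2 scale. Spans of the other genes with MO2 were not computed.

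**Figure D5:**
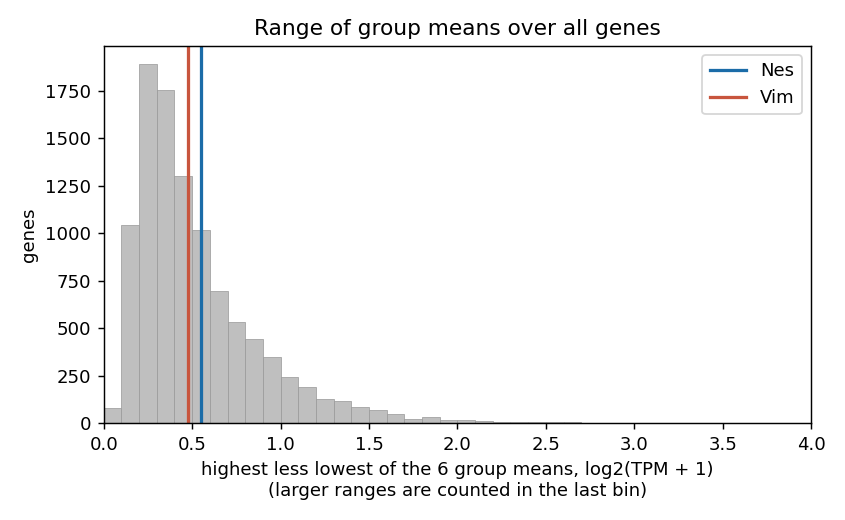
Number of genes (vertical axis) by the span of their 6 group means on the log2(TPM + 1) scale (horizontal axis) among 10134 genes, with the spans of Nes and Vim marked. Nes at 0.55 and Vim at 0.48 lie above the median gene at 0.42, but Vim falls to 0.25 without the C sample MO4. With MO2 in C, the Nes span falls to 0.36.

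Across samples, Nes and Vim varied together to a moderate degree. On log2(TPM + 1) over 23 samples Pearson's r was 0.562 (permutation p = 0.00369, adjusted 0.00738) and Spearman's rho 0.694 (permutation p = 0.00043, adjusted 0.00086). Without MO4 and MO21, the samples farthest from the Vim median, r was 0.523. As deviations from group means r was 0.414 (permutation p = 0.0813) and rho 0.443 (permutation p = 0.0581). In the batch-corrected values r was 0.744 for log2 levels and 0.738 for deviations from group means. How much of the relation lay between groups is therefore not settled by these values. The samples share the scale on which every TPM value depends on the others in its library.

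Among 10133 other genes over the same samples, Vim stood at position 319 by its correlation with Nes, and Nes at position 226 by its correlation with Vim. The identifiers most like Nes were ENSRNOG00000003388 (r = 0.817) and ENSRNOG00000019376 (r = 0.798). The first of these had group means of 61.2 TPM in C and 38.2 TPM in NGy, its highest and lowest. The most opposite were ENSRNOG00000005695 (r = -0.820), at 70.7 TPM in C and 318.7 TPM in NGy, and ENSRNOG00000005763 (r = -0.817). For Vim the most alike were ENSRNOG00000016201 (r = 0.852) and ENSRNOG00000005096 (r = 0.838), and the most opposite ENSRNOG00000020551 (r = -0.911) and ENSRNOG00000017977 (r = -0.885). These correlations were computed as a description, and the identifiers were not paired with names.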

How the data were processed

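Poly(A) RNA of 24 NSp samples was sequenced, and the deposited tables hold TPM values per Ensembl gene that the authors made from their reads. STAR 2.6.1 and kallisto are named in the submitters' processing notes, and the paper gives the rat build Rn7. A second deposited table, batch-corrected by the authors with NOISeq and without MO2, holds the sum of the corrected TPM and 1, multiplied by 0.5, as judged from its values, in which genes at 0 TPM stand at 0.5. It was doubled, reduced by 1 and floored at 0.

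The uncorrected TPM of 23 samples were tested with limma 3.58.1 in R 4.3.3 on log2(TPM + 1). Each pair was fitted on its own samples, on genes that averaged 1 TPM or more in one of the groups. Ratios used exact permutation tests (scipy 1.17.1), and correlations 100000 permutations. Table columns carry identifiers that the labels do not hold. Their groups were taken from the study's methods and heatmap and from the list of columns given with the genes, and no column could be matched to a single labelled sample. Scripts were tested on simulated data. The alternatives were another pseudocount, no filter, other scalings, the corrected table, a joint fit of the 6 groups, a variance trend, MO2 included and each sample left out. The fit with 2 components as covariates was added after the data were seen. The genes and lists were chosen with earlier results of these data known. The genes most and least correlated with Nes and Vim, 2 each way, were named by identifier. Marker and pathway lists were not analysed here, since 0 identifiers matched the gene table, and protein sequences were not used here.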

Additional observations from a re-analysis of the deposited data

Results flagged for a closer look

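The Nes level of MO2, the untreated sample left out, was 110 TPM, while the other 3 C samples lay between 202 and 214 TPM. Its gap to the nearest sample was 0.882 of the range of the 4 samples, above Dixon's critical value of 0.829. This was 1 of 18 sets of values examined in this way, and such a rule also picks out some sets by chance. The Vim level of MO2, 2606 TPM, was not set apart by the same rule. What set MO2 apart was not tested.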

How the results depend on the processing

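Depth could not be judged from TPM values, which limits what the small differences can show. No paired analysis was possible because the table columns carry identifiers and no replicate number of the labels. With MO2 included, the log2 differences of Nes turned from lower to higher in CGy against C (0.012), N against C (0.045) and A against C (0.039), and the ascorbic acid interaction of Nes turned to -0.063. Rescaling the libraries to equal sums turned A against N for Nes to 0.0029. By adjusted p alone, Nes in NGy against N (-0.36) passed. The adjusted p of Nes also crossed 0.05, without a call, in AGy against NGy under 4 other settings of the uncorrected values (limma, 0.0119 to 0.0493) and in NGy against CGy under 2 (limma, 0.0246 and 0.0476). The Vim interactions passed in the batch-corrected table (0.33 for Noggin, 0.38 for ascorbic acid) and, for ascorbic acid, with 2 components as covariates (0.38). Both fits held MO4, without which the uncorrected values gave 0.10 and 0.15. The cause was not tested.

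Leaving out each sample in turn changed the sign of some differences, none of which had passed the test. For Nes the ranges were -0.10 to 0.0057 in AGy against A, -0.077 to 0.026 in AGy against CGy and -0.063 to 0.036 in A against N. For Vim they were -0.20 to 0.0011 in AGy against A, -0.041 to 0.0097 in NGy against CGy, -0.074 to 0.12 in AGy against CGy, -0.070 to 0.12 in A against N and -0.058 to 0.14 in AGy against NGy. For log2 of Nes over Vim they were -0.071 to 0.34 in N against C, -0.079 to 0.33 in A against C, both lowest without MO4, -0.099 to 0.078 in A against N, -0.059 to 0.12 in AGy against A and -0.14 to 0.0030 in AGy against CGy. Over the other alternatives, 96 values for Nes, 99 for Vim and 21 for the ratio kept their direction and side of the threshold. For pairs of groups, a setting that kept the log2 difference and the 1.5-fold threshold could produce no call, since no difference reached 1.5-fold. The counts so do not measure how stable the adjusted p-values were. Vim in CGy against C is counted as kept, with limma's adjusted p at 0.331 before and 0.0012 after correction.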
